A study of Mus musculus with 17 samples.

Results

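Among the chromatin contacts of retinoic acid-treated mouse embryoid bodies, 1453 loops of 1211657 joined an annotated promoter to a distal element over 50 kb away and were seen both in the whole population and in a sorted subpopulation. A loop is a pair of genomic intervals, called anchors, that were linked by at least 1 sequenced read pair. Overlapping anchors of the 17 libraries were joined, and the read pairs of each loop were summed within each group. A loop was retained when it lay on an autosome, spanned 50 kb to 1 Mb between the middles of its anchors, had at least 3 read pairs in the pooled bulk libraries and at least 3 in the pooled cluster2 libraries, and had exactly 1 anchor within 5 kb of a transcription start site of a protein-coding gene. That anchor is called the promoter anchor, the genes whose start site lies there are called target genes, and the other is called the distal anchor. The members were therefore chosen by the pooled counts of both groups, and the levels of these loops in either group are given as a description. Many members lay close to the count limit. Of the 1453 members, 436 had 3 bulk read pairs, 289 had 3 cluster2 read pairs, and 94 had 3 in both. Just outside the limit, 759 promoter to distal loops had enough cluster2 read pairs but 2 bulk read pairs, and 422 had enough bulk read pairs but 2 from cluster2. A further 3650 loops of the same spans and counts had a promoter at both anchors, and 263 had a promoter at neither.

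The study measured H3K27ac HiChIP, a proximity ligation assay enriched for acetylated histone H3, which marks enhancers and promoters in use, to ask whether loops of a subpopulation could be recovered from a mixture. All cells were mouse embryonic stem cells grown into embryoid bodies by the hanging drop method and treated with 0.5 µM retinoic acid for 4 days. Bulk refers to 12 libraries of the unsorted population, and cluster2 to 5 libraries of cells sorted as positive for both EpCAM and CD38. The sorted cells were collected over 5 FACS runs and are also present in the bulk population, so the groups compare a part with the whole and there was no untreated control. P-values set the difference between the groups against the spread between libraries within them. Whether the bulk libraries came from separate cultures is not stated. The bulk libraries held 65178 to 241202 read pairs in listed loops and the cluster2 libraries 50508 to 118179. Levels are given as CPM, the read pairs of a loop scaled to the read pairs of its library that lay on joined anchors. The groups differed strongly in composition. The members took 0.388% to 0.809% of a bulk library and 3.06% to 3.26% of a cluster2 library. Of 175627 distal anchors on autosomes, 3973 lay in any cluster2 loop. The TMM factors that edgeR gave to the loop table were 0.42 to 0.82 in bulk and 2.92 to 3.52 in cluster2, so a member can have a higher mean CPM in cluster2 and still a negative fitted fold change. As in other bulk assays, fewer cells with a loop and fewer contacts per cell cannot be told apart. Because the assay enriches for acetylated histone H3, a difference in acetylation at an anchor cannot be told apart from one in contact either. The sorting markers themselves gave few short-range promoter read pairs, namely 9 in bulk and 8 in cluster2 for Epcam and 9 and 1 for Cd38, too few to be tested.

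Enhancers are stretches of DNA bound by transcription factors that raise the transcription of a gene when they are brought to its promoter, and the DNA between them is folded out into a loop. An enhancer need not act on the gene beside it, because insulator sites bound by CTCF, the affinity of promoters for particular enhancers and the folding of the chromosome all shape which promoter it meets. Contacts generally become rarer as the genomic distance grows. In differentiating stem cells, retinoic acid is known to turn on the Hox clusters and other developmental genes that are surrounded by long stretches of regulatory DNA.

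The sequence around a motif in the distal anchor is shown for 6 members on which the results below turn, to show what a distal element of a long loop looks like. Each is 200 bases of the mm9 genome on the plus strand, 5′ to 3′, in lower case with the matched motif in capitals. None of these stretches overlaps an annotated exon. The first comes from the loop of Ptma (chr1:88337247-88337446) and holds a CTCF core on the plus strand and the reverse complement of the TEAD motif. The second comes from the loop of Dhx8 (chr11:101520189-101520388) and holds a CTCF core on the plus strand. The third, from a strong skipping loop of Maml3 (chr3:52001439-52001638), holds the TEAD motif on the minus strand. The fourth is the element of Klf6 (chr13:5803462-5803661) with a forkhead motif, and the fifth that of Ctgf (chr10:24165991-24166190) with the TEAD motif on both strands. The last is the element near Smug1 that was joined to Hoxc4 (chr15:103000056-103000255), which met several promoters and holds a SOX motif on the minus strand.
Ptma distal element: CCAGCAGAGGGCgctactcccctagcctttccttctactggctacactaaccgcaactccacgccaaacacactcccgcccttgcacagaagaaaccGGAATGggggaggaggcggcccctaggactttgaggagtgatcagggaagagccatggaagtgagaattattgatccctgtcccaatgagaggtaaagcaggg
Dhx8 distal element: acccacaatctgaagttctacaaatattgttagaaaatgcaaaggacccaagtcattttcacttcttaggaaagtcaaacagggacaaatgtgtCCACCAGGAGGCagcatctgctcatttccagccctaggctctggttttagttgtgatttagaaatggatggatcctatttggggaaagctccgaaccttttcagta
Maml3 distal element: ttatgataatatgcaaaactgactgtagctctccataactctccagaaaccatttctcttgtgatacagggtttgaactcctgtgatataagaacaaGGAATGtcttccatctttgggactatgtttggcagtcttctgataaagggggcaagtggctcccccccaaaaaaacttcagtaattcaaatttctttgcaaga
Klf6 distal element: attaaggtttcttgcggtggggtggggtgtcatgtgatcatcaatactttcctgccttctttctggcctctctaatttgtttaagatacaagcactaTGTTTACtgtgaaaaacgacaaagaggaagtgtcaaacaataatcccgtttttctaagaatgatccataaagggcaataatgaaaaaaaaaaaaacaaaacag
Ctgf distal element: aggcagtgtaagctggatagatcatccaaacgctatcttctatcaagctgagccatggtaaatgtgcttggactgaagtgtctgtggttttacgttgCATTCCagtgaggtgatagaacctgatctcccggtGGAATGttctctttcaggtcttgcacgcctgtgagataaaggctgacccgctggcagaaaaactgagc
Hoxc4 distal element: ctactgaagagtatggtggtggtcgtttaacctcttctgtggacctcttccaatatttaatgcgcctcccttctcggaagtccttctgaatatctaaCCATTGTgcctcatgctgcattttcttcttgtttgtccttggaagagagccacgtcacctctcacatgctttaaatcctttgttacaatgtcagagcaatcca

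Most members joined a distal element to a gene other than the one it lies closest to. Of the 1453 members, 1154 skipped the nearest gene, meaning that the protein-coding start site nearest to the middle of the distal anchor belonged to a gene other than the target (79.4%, Wilson 95% interval 77.3 to 81.4). The share rose with the span of the loop. It was 70.9% (67.3 to 74.2) at 50 to 100 kb, 84.0% (80.9 to 86.8) at 100 to 250 kb, 92.8% (87.8 to 95.8) at 250 to 500 kb and 95.2% (84.2 to 98.7) at 500 kb to 1 Mb. Intervals here cover counting error only, and members that share an anchor are not independent. The median span was 109.76 kb over all members, 121.9 kb over those that skipped and 79.3 kb over the 299 that did not. The nearest start site lay a median of 24.6 kb from the distal anchor, and 20.4 kb in the skipping loops. Loops under 50 kb could not be members, so the span limit itself left out most loops to a nearest gene closer than that. The skipping share depends on this limit and does not say how often an element met its nearest gene.

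Over the other 271419 promoter to distal loops of these spans the share was 88.2%, and within the bins, from short to long, 67.4%, 85.4%, 94.4% and 98.2%. The bins of the members lay within a few points of these, and the other loops had a median span of 269484 bp. Loops that reached 3 read pairs only in bulk skipped in 77.8% of 13025 cases, with 64.0%, 81.0%, 88.7% and 92.9% from the shortest to the longest bin. Loops that reached 3 only in cluster2 skipped in 94.6% of 4606 cases, with 85.8%, 95.7% and 99.1% in the first bins and 514 of 514 in the longest, where the Wilson interval starts at 99.3%. The members thus stood between these groups of loops and nearer to those of bulk. These shares were not tested, as loops are no replicates. A gene with a placeholder symbol, such as a Gm number, was the nearest gene in 133 of the skipping loops, and 77.5% of members skipped when such genes were left out.

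**Figure D1:**
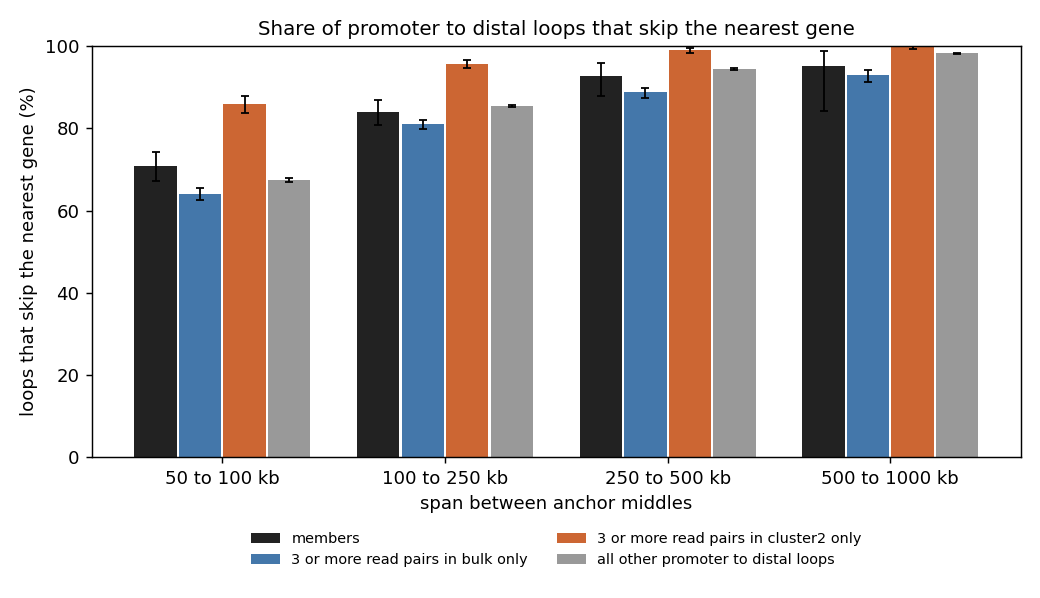
Share of promoter to distal loops that skip the nearest gene (%, y axis) in 4 bins of span (x axis), for members, loops with 3 or more read pairs in bulk only or in cluster2 only, and all other loops; bars are shares and error bars Wilson 95% intervals. Members rise from 70.9% at 50 to 100 kb to 95.2% at 500 kb to 1 Mb, while cluster2-only loops start at 85.8%.

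The skipped genes were mostly close by and also in contact. Of the 1154 skipping loops, 265 had no other gene start between their anchors, 315 had 1 and 205 had 5 or more. In 1130 of them (97.9%) the nearest gene had an anchor of its own, so a contact with it could have been recorded, and in 967 (83.8%) that anchor lay in a cluster2 loop. The distal anchor also had at least 1 read pair to the nearest gene in 1058 of these 1130 cases (93.6%). Over all 1130 cases, the distal anchor had more read pairs to the target than to the nearest gene in 507. It had fewer in 600 and as many in 23. The 507 include the 72 cases with no listed read pair to the nearest gene. Of the loops described further on, that of Dhx8 had more read pairs to the target and that of Dhrs3 had fewer.

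The distal elements lay mostly outside genes. The middle of the distal anchor was intergenic in 946 members (65.1%), in an intron of a gene other than the target in 336 (23.1%) and in an intron of the target in 134 (9.22%). Exons held 28 in other genes and 9 in the target. Relative to transcription, 624 distal elements lay upstream of their target and 567 downstream, and the remaining 262 members had target genes on both strands.

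The CTCF core was found in a larger share of the distal anchors of members than of all distal anchors. Motifs were searched on both strands of the 2 kb around the anchor middle, a window of the same length for every anchor. The CTCF core was searched as CCAC or CCAG, then any base, AG, any 2 bases and GGC. It was found in 18.7% of the 1021 distal anchors of members, in 15.8% of the 3973 in a cluster2 loop and in 10.4% of all 175627. Among the 788 distal anchors of skipping loops it was found in 21.1%. The shares of the other motifs differed by fewer percentage points. TGACTCA, the AP-1 motif, was found in 32.1% of member and 32.3% of all distal anchors, the forkhead motif TGTTTAC in 26.2% and 27.9%, the GATA motif AGATAAG in 25.4% and 28.1%, the SOX motif ACAATGG in 25.5% and 28.6%, and the TEAD motif CATTCC in 72.6% and 70.6%. The HNF1 motif was found in 0.490% and 0.259%, and the direct repeat bound by retinoic acid receptors in 0.0979% and 0.156%. These shares of the member anchors rest on 5 anchors and 1 anchor, too few to compare. A match is a description of the letters and not of binding. The member anchors also had a median GC content of 48.9% against 43.5% for all distal anchors, were 3590 bp wide against 2265 bp and held 7 against 3 sites of MboI, the enzyme of the assay. Their part in the motif shares was not tested. At the promoter side the CTCF core was found in 13.4% of 1062 member anchors and 15.2% of all 38704 promoter anchors. For the direction of the cores at both ends, the whole length of each anchor was searched and not the 2 kb window. The cores pointed towards each other in 36 members, the same way in 47 and away from each other in 14. In 730 members neither anchor held a core, in 593 only 1 anchor did, and 33 had cores in both directions at an anchor.

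Members were shared between the groups, yet thinly covered in each library. The median member had 5 bulk and 6 cluster2 read pairs and was seen in 4 of the 12 bulk and 3 of the 5 cluster2 libraries. There were 317 members seen in all 5 cluster2 libraries and 7 seen in all 12 bulk libraries. Mean CPM was a median of 2.71 in bulk and 14.1 in cluster2. The ratio of cluster2 to bulk had a median of 5.14 with quartiles of 3.17 and 9.14, and 1414 members had the higher mean CPM in cluster2 and 39 in bulk. The limit of 3 read pairs was the same for the bulk pool (12 libraries, mean 134730 read pairs) and the smaller cluster2 pool (5 libraries, mean 81850). It thus demands a higher CPM in cluster2, and the direction of these ratios follows in part from how members were chosen. The same holds for the larger share of cluster2 read pairs on these loops.

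**Figure D2:**
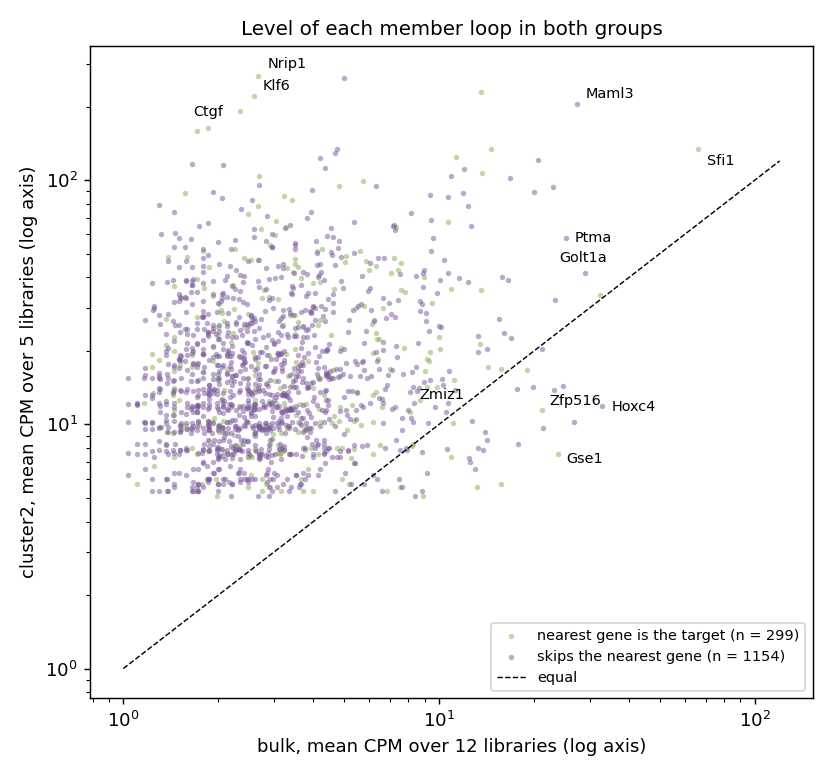
Mean CPM of each member over the 5 cluster2 libraries (y axis, log) against the mean over the 12 bulk libraries (x axis, log), with colour for members that skip the nearest gene (n = 1154) or not (n = 299) and a dashed line at equal levels. Most points lie above the line, and 39 lie below it, Hoxc4, Gse1 and Zfp516 among those named.

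Of the 1453 members, 305 had 20 or more read pairs from 5 or more libraries and entered the edgeR quasi-likelihood fit over 5369 loops, and 1148 did not. Of these 305, 94 were higher in cluster2 at a Benjamini-Hochberg adjusted p under 0.05 (30.8%, against 38.1% of all tested loops) and 64 were lower (21.0% against 22.4%). Leaving out cluster2 library 1, 2 or 5 gave 58 of 209, 62 of 231 or 55 of 222 tested members as higher, where 30.6%, 31.4% and 30.3% of all tested loops were. The values of all cluster2 libraries lay above those of all bulk libraries in 133 members (43.6% against 49.9% of tested loops), and the reverse held in 0 members (against 1.47%). Because the pooled counts chose the members, these calls, and those given by gene list further on, are a description. The median log2 fold change was 0.51 over tested members and 0.78 over all tested loops. The direction depends on the scaling. With library size alone, both medians rose to 2.72 and 2.99, and 238 of 305 members were higher and 3 lower, against 76.9% and 13.8% of all tested loops. Skipping and non-skipping members had like values, with 64 higher, 46 lower and a median of 0.55 among 214 tested, against 30 higher, 18 lower and a median of 0.45 among 91.

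In 3 segments the loops as a whole stood apart between the groups. The segments are the first part of chromosome 11 up to 3.2 Mb, chromosome 1 from 130 Mb and chromosome 2 from 150 Mb, and they held 3, 73 and 82 members. Of 35 members tested there, 3 were higher and 14 lower, against 7.87% and 57.0% of all 597 loops tested there. The median log2 fold change was -0.46 for these members and -2.20 for all these loops. Outside the segments, 91 of 270 members were higher and 50 lower, against 41.8% and 18.1% of 4772 loops, with medians of 0.75 and 0.95. When the loops of the segments were left out of the fit, 108 of 270 members were higher and 42 lower, against 50.6% and 16.9% of all loops.

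The shares of skipping loops in the libraries overlapped between the groups. These values come from the counts that chose the members and are given with no test. Skipping loops took 74.8% ± 1.17 of the member read pairs of a cluster2 library (SD, n = 5; 73.4 to 75.8) and 75.6% ± 1.61 of those of a bulk library (SD, n = 12; 71.4 to 78.3). The difference was -0.863 percentage points in the mean. It turned to 0.655 without bulk library 3 and to 0.0396 without bulk library 6. Over all 272872 promoter to distal loops, whatever their counts, skipping loops took 89.5% of cluster2 read pairs (89.2 to 90.0) and 85.7% of bulk read pairs (84.9 to 87.1).

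The median span weighted by read pairs was 95469 ± 1052 bp in cluster2 (SD, n = 5; 94077 to 96798) and 102600 ± 3917 bp in bulk (SD, n = 12; 96999 to 110142), and no cluster2 library reached the lowest bulk library. The means differed by -7132 bp, again with no test. When each member seen in a library was counted once, the difference was -573 bp, and among members with at least 10 read pairs in each pool it was -1647 bp. In all promoter to distal loops the weighted median span was 168831 bp in cluster2 (161148 to 172650) and 230642 bp in bulk (221049 to 240172).

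**Figure D3:**
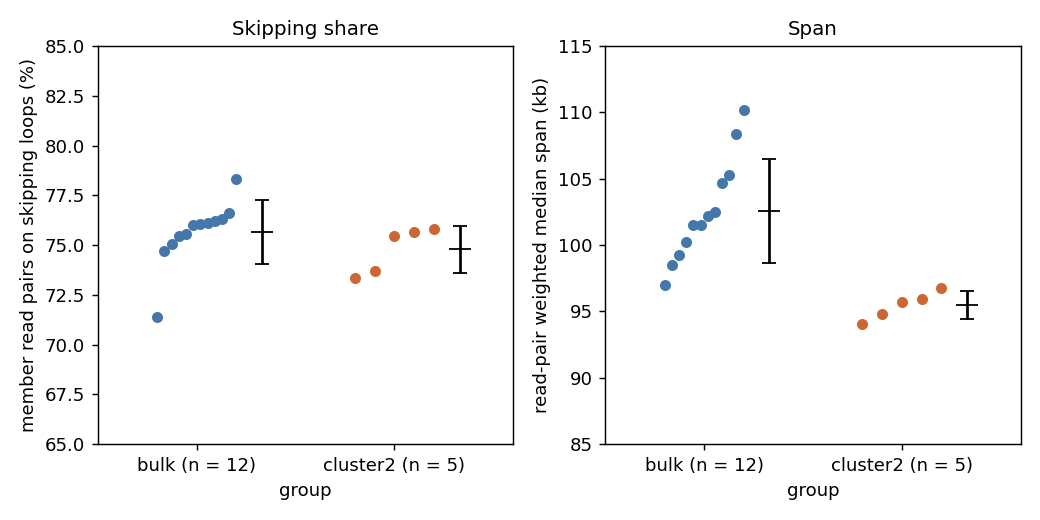
Share of member read pairs on skipping loops (left, %) and read-pair weighted median span of members (right, kb), with 1 point per library for bulk (n = 12) and cluster2 (n = 5); black marks are the mean ± SD and the y axes do not start at 0. The shares overlap, whereas all 5 cluster2 spans (94077 to 96798 bp) lie below the lowest bulk span of 96999 bp.

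The strongest members in both groups served genes of unrelated roles. They were ranked by the smaller of their mean CPM values in the 2 groups. Sfi1, which encodes a centrin-binding protein of the centrosome, led with a loop of 54.7 kb at the start of chromosome 11. It stood at 11.5, 59.2 and 123 CPM (lowest, median and highest) in bulk and at 135, 174, 157, 79.2 and 126 CPM in the cluster2 libraries, so the groups overlapped. Its log2 fold change was -1.17 ± 0.35 (SE), and 1.16 with library size alone. The loop of Maml3, a coactivator of Notch signalling, spanned 93.9 kb and skipped Foxo1, whose start site lay 70.6 kb from the distal element. Its level was 0, 24.4 and 78.5 CPM in bulk and at 212, 163, 294, 158 and 203 CPM in cluster2. All 5 cluster2 values lay above every bulk value, as for 49.9% of all tested loops, with a log2 fold change of 0.48 ± 0.35. Foxo1 itself shared 2 bulk and 0 cluster2 read pairs with this element. The loop of Golt1a, a membrane protein of the Golgi, spanned 127 kb, skipped Ppp1r15b and lay in the distal segment of chromosome 1. In bulk it stood at 0, 24.3 and 73.8 CPM and in cluster2 at 67.7, 93.1, 19.6, 0 and 29.0 CPM, with -1.65 ± 0.43, and 0.63 with library size alone.

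Other strong members met the target and the skipped gene to different degrees. The loop of Ptma, which encodes prothymosin alpha, spanned 86.9 kb and skipped the ribosomal pseudogene Rpl30-ps6, annotated as protein-coding. It stood at 0, 25.7 and 49.8 CPM in bulk and at 42.3, 69.8, 19.6, 119 and 38.6 CPM in cluster2, with -1.30 ± 0.43, and 0.99 with library size alone. The loop of Dhx8, an RNA helicase of the spliceosome, spanned 74.5 kb although Arl4d began 7.19 kb from the distal element. Its level was 0, 17.5 and 39.4 CPM in bulk and at 84.6, 116, 216, 99.0 and 86.9 CPM in cluster2. The groups did not overlap, as for 49.9% of all tested loops with cluster2 above bulk. The fitted log2 fold change was 0.07 ± 0.40 and was not called, and it was 2.38 with library size alone. The same element shared 22 bulk and 26 cluster2 read pairs with Arl4d, against 34 and 45 with Dhx8. The loop of Dhrs3, which reduces retinaldehyde and so limits the supply of retinoic acid, spanned 105 kb. It stood at 0, 21.4 and 44.3 CPM in bulk and at 84.6, 69.8, 137, 99.0 and 57.9 CPM in cluster2, with -0.52 ± 0.41. Here the element shared 146 bulk and 0 cluster2 read pairs with the nearest gene Vps13d, so contact with the near gene was recorded in bulk alone. A loop of Gm1979 spanned 88.4 kb and skipped 5031410I06Rik, which had no anchor. It stood at 0, 19.2 and 49.8 CPM in bulk and at 67.7, 186, 39.2, 99.0 and 77.25 CPM in cluster2. Its log2 fold change was -0.38 ± 0.40, and 1.92 with library size alone.

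**Figure D4:**
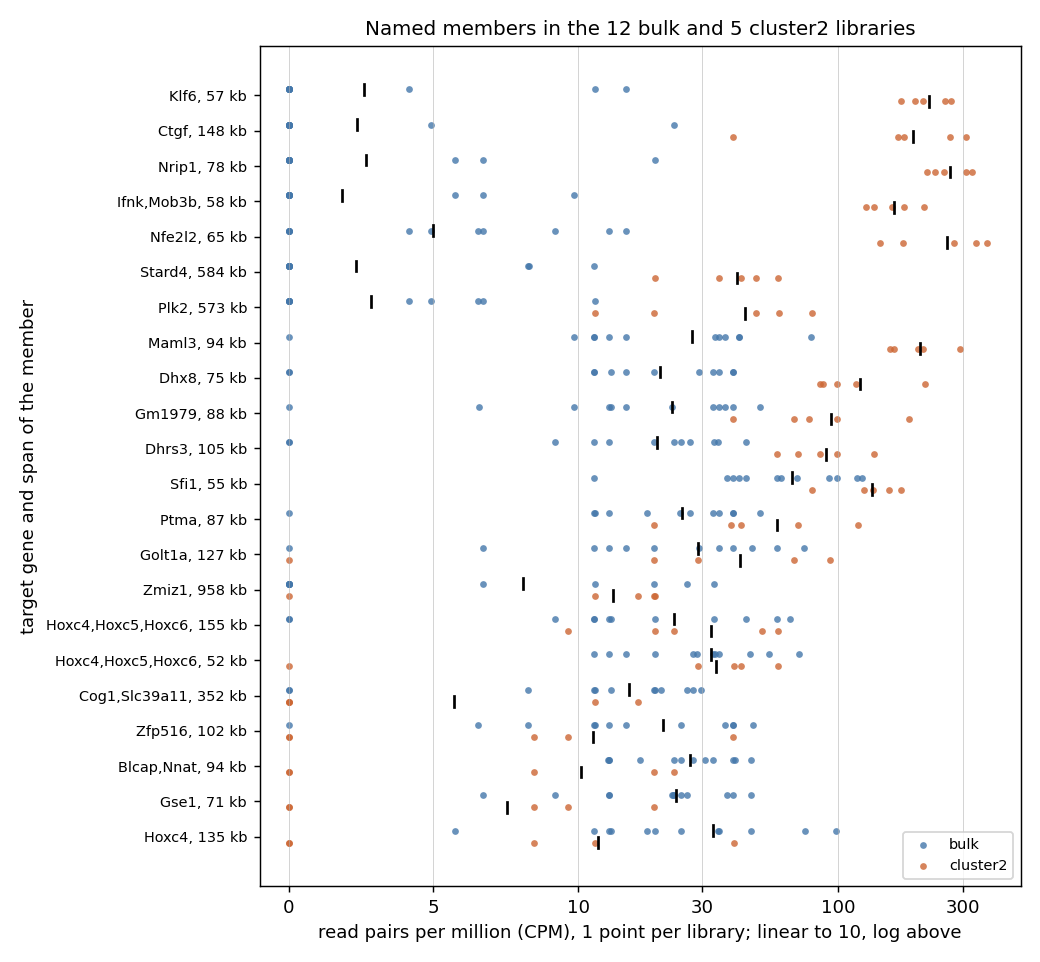
CPM of the named members (x axis, linear to 10 and log above) with 1 point per library, bulk above and cluster2 below on each line, black ticks at the group means, ordered by fitted log2 fold change. Klf6 at the top has bulk values of 0 to 15.3 and cluster2 values of 174 to 270, and Hoxc4 at the bottom overlaps between the groups.

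The highest fitted ratios belonged to Klf6, Ctgf, Nrip1, the anchor of Ifnk and Mob3b, and Nfe2l2. Klf6, a zinc finger transcription factor, had a loop of 57.1 kb with 3 bulk and 91 cluster2 read pairs. It stood at 0, 0 and 15.3 CPM in bulk and at 212, 174, 196, 257 and 270 CPM in cluster2, with a log2 fold change of 4.15 ± 0.56. Ctgf, a secreted matrix protein, had a loop of 148 kb with 3 and 86 read pairs. Its level was 0, 0 and 23.3 CPM in bulk and at 169, 268, 39.2, 178 and 309 CPM in cluster2, with 4.04 ± 0.56. Both elements had their target as the nearest gene. Nrip1, a corepressor of nuclear receptors that retinoic acid is known to induce, had a loop of 77.7 kb at 0, 0 and 19.7 CPM in bulk and 254, 326, 235, 218 and 309 CPM in cluster2, with 3.65 ± 0.49. Nfe2l2, a regulator of the response to oxidative stress, had a loop of 65.2 kb that skipped Agps, at 0, 4.54 and 15.3 CPM in bulk and 338, 372, 176, 277 and 145 CPM in cluster2, with 3.40 ± 0.47. The fifth, at the shared promoter anchor of Ifnk and Mob3b, had 4 and 68 read pairs and 3.41 ± 0.56. In all 5 of them every cluster2 library lay above every bulk library, as for 49.9% of all tested loops. Picking the highest fold changes favours such a separation, and the limit of 3 bulk read pairs bounds how high such a ratio can be.

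The lowest ratios included a Hox gene and an imprinted gene. The lowest belonged to a Hoxc4 loop of 135 kb that skipped Smug1, with 53 bulk and 4 cluster2 read pairs. It stood at 5.75, 22.3 and 98.1 CPM in bulk and at 8.46, 11.6, 0, 39.6 and 0 CPM in cluster2, with -3.73 ± 0.56. The loop of Gse1 over 70.8 kb had 40 and 3 read pairs, at 6.7, 23.2 and 46 CPM in bulk and 8.46, 0, 19.6, 0 and 9.66 CPM in cluster2, with -3.65 ± 0.61. The loop at Blcap and Nnat, the latter an imprinted gene, spanned 94.4 kb, skipped Src and lay in the distal segment of chromosome 2, with 43 and 4 read pairs and -3.46 ± 0.57. Zfp516 (102 kb, 35 and 4 read pairs) had -3.16 ± 0.59, and the loop at Cog1 and Slc39a11 (352 kb, 27 and 3 read pairs) had -3.12 ± 0.65. The groups overlapped in all 5.

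Among the tested members the longest spanned 958 kb and joined Zmiz1, a coregulator related to the PIAS proteins, to an element 10.3 kb from Rps24. It had 15 bulk and 5 cluster2 read pairs and stood at 0, 0 and 33.2 CPM in bulk and 16.9, 11.6, 19.6, 19.8 and 0 CPM in cluster2, with -1.72 ± 0.63, and 0.40 with library size alone. Stard4, a cholesterol transfer protein, had a loop of 584 kb that skipped Epb4.1l4a, with 4 and 17 read pairs, at 42.3, 34.9, 58.8, 19.8 and 48.3 CPM in cluster2 against at most 11.5 CPM in bulk. Plk2, a stress-responsive kinase, had a loop of 573 kb whose distal element was nearest to Actbl2, with 5 and 18 read pairs and overlapping groups. All 3 elements had another gene nearer by.

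Endoderm regulators were joined to elements that had no nearer gene. Of 20 such genes, Foxa2, Gata4, Gata6 and Tcf7l2 were targets, with 7 members of which 0 skipped the nearest gene. The pioneer factor Foxa2 had a loop of 72.0 kb at 59.2, 46.5, 78.4, 59.4 and 96.6 CPM in cluster2 and at most 11.5 CPM in bulk. Gata4, which helps specify primitive endoderm, had a loop of 94.8 kb at 118, 140, 118, 198 and 222 CPM in cluster2 and at most 9.85 CPM in bulk. Its partner Gata6 had a loop of 117 kb at 42.3, 46.5, 39.2, 79.2 and 48.3 CPM in cluster2 and at most 16.6 CPM in bulk. The groups did not overlap for any of these, as for 49.9% of all tested loops. Tcf7l2, an effector of Wnt signalling, had 4 members of 124 to 186 kb, 1 of them (148 kb) with 152, 105, 98.0, 79.2 and 86.9 CPM in cluster2 and at most 16.6 CPM in bulk. Over the list, 4 of 5 tested members were higher and 0 lower, with a median log2 fold change of 2.06 (4.12 with library size alone), where 38.1% of all tested loops were higher and 22.4% lower.

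Of 40 products of visceral and parietal endoderm, 6 were targets, namely Apom, Cd38, Cldn6, Cubn, Fst and Serpinh1, with 8 members of which 7 skipped. Cubn, the endocytic receptor cubilin of visceral endoderm, had a loop of 120 kb at 67.7, 58.2, 157, 99.0 and 48.3 CPM in cluster2 and at most 13.1 CPM in bulk. Cd38, an NAD-consuming enzyme and 1 of the sorting markers, had a loop of 60.0 kb, which skipped Bst1, at 102, 46.5, 19.6, 59.4 and 57.9 CPM in cluster2 and at most 14.8 CPM in bulk. Both were among the tested members, and in both the groups did not overlap, as for 49.9% of all tested loops with cluster2 above bulk. Apom, a lipid carrier, was joined at 175 and 184 kb to an element beside Hspa1b with 4 to 9 read pairs in a group, too few for the fit.

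Most Hox loops skipped the nearest gene, and with TMM scaling none of those tested was called higher in cluster2. Hox genes encode the homeodomain factors that set position along the body axis. Of 39 genes, 13 were targets with 22 members, 17 of which skipped the nearest gene. Of 13 tested, 0 were higher and 9 lower with a median log2 fold change of -2.13, beside 38.1% and 22.4% of all tested loops, whereas with library size alone 4 were higher and 1 lower with a median of -0.02. Hoxc4 had 8 members, all 7 tested ones among the lower. A loop of Hoxc4, Hoxc5 and Hoxc6 over 52.4 kb stood at 11.5, 30.9 and 70.5 CPM in bulk and at 42.3, 0, 58.8, 39.6 and 29.0 CPM in cluster2, with -2.46 ± 0.45. The 155 kb loop of the same promoter anchor to the element near Smug1 had -2.01 ± 0.47, and 0.24 with library size alone. A loop of Hoxa3 and Hoxa4 over 218 kb, which skipped Skap2, had 31 bulk and 4 cluster2 read pairs and was also among the lower.

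The retinoid pathway and the TALE homeodomain partners of the Hox factors gave 24 members to 10 of 32 genes, 13 of them skipping, and the 13 tested included 3 higher and 4 lower with a median log2 fold change of 0.00 (10 higher and 0 lower with library size alone). Cyp26b1, which degrades retinoic acid, had 4 members of which 0 skipped and 0 were called. Meis1, a TALE factor, had 6 members, all to elements nearest to Gm16140, which shares 1 of the promoter anchors. The one over 143 kb stood at 33.9, 34.9, 19.6, 39.6 and 67.6 CPM in cluster2 and up to 45.8 CPM in bulk, with -1.14 ± 0.48, and the one over 147 kb had -1.98 ± 0.64. Immediate early genes, which respond quickly to growth signals and stress, gave 30 members to 13 of 28 genes, 19 skipping, and of 11 tested 5 were higher and 0 lower with a median of 1.07 (11 higher with library size alone). These counts stand beside 38.1% higher and 22.4% lower among all tested loops, and 76.9% higher with library size alone. Cyr61, a relative of Ctgf, had 5 members of 54.1 to 557 kb, and the one over 149 kb, which skipped Ddah1, stood at 102, 69.8, 78.4, 139 and 86.9 CPM in cluster2 and up to 20.1 CPM in bulk.

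Other groups gave few tested members. Signalling genes gave 18 members to 12 of 83 genes, 15 skipping. The Notch effector Hes1 had 5 of them, and its loop of 55.1 kb, which skipped Gm1968, had 3 bulk and 41 cluster2 read pairs with 3.08 ± 0.63. Pluripotency factors gave 8 members to 5 of 26 genes, 7 skipping, and the only tested one joined Sall4 to an element nearest to Zfp64 over 95.1 kb with 33 and 4 read pairs and -3.10 ± 0.60. Neural regulators gave 8 members to 6 of 74 entries, Sox4 being counted under both of its gene identifiers, with 3 skipping and 0 tested. Ribosomal protein genes gave 9 members, 8 skipping and 0 tested. Fibroblast markers gave 1, from Vim to an element beside Cubn, and mesoderm and blood regulators gave 0.

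A minority of promoters and elements carried several members. Of 1062 promoter anchors, 822 had 1 member and 240 had more, up to 8. Counting all anchors of a gene, Hoxc4, Ier5l, Msra and Zmiz1 had 8 members each. All 8 of Ier5l skipped the nearest gene over 72.7 to 307 kb, and 4 of Msra and 1 of Zmiz1 did. Of 1021 distal anchors, 769 met 1 promoter anchor, 252 met at least 2 and 20 met at least 5. The element met by most lay at chr17:35086935-35090657 beside the heat shock gene Hspa1b in the gene-dense major histocompatibility region, with 11 promoter anchors at 57.4 to 347 kb and 63 bulk and 93 cluster2 read pairs. Elements beside Zfp541 (chr7:16630945-16634908) and Noxa1 (chr2:24978269-24983450) met 9 and 8, with 39 and 58, and 75 and 41 read pairs. All loops of these 3 elements skipped the nearest gene. The element near Smug1 (chr15:102998460-103002070) met 6, of Hoxc and other genes, with 140 and 37 read pairs.

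To ask whether the target genes also differed in contacts that did not choose them, read pairs of loops under 50 kb were summed per gene, using the anchors within 5 kb of its start sites, and tested by edgeR over 8483 genes. These short-range promoter read pairs are given as CPM of their own total per library. Of 1150 target genes tested, 250 were higher in cluster2 at a Benjamini-Hochberg adjusted p under 0.05 (21.7%, against 23.4% of all tested genes) and 409 were lower (35.6% against 29.8%). The median log2 fold change was -0.31 for targets and -0.05 for all genes, and -0.17 and 0.10 with library size alone. The share of lower genes exceeded the background by a modest margin, whereas the share of higher genes was near it. The outcome depended on the anchors. Over loops whose anchors lay in loops of both groups, 178 of 853 target genes were higher (all genes 25.2%) and 133 were lower (9.05%).

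Among named targets, short-range promoter read pairs were higher in cluster2 at Tcf7l2, Hes1 and Klf6. Tcf7l2 stood at 0, 72.9 and 148 CPM in bulk and at 768, 500, 623, 594 and 535 CPM in cluster2 (log2 fold change 2.81 ± 0.32, adjusted p = 2.7e-11). Hes1 stood at 51, 95.3 and 260 CPM in bulk and at 553, 629, 671, 617 and 809 CPM in cluster2 (2.38 ± 0.28, adjusted p = 6.7e-11), but at -0.37 when only loops of 20 to 50 kb were used. Klf6 stood at 0, 89.4 and 237 CPM in bulk and at 359, 515, 503, 404 and 512 CPM in cluster2 (1.85 ± 0.32, adjusted p = 1.1e-06). In these genes no cluster2 library overlapped with bulk, and the share of all tested genes without overlap was not counted. Foxa2 rose by 1.49 ± 0.42 (adjusted p = 0.0017), Cubn by 1.23 ± 0.37 (adjusted p = 0.0033) and Apom by 1.12 ± 0.31 (adjusted p = 0.0015), although their groups overlapped and Cubn stood at -4.39 at 20 to 50 kb. Ctgf did not pass the test at 1.12 ± 0.59 (adjusted p = 0.10), nor did Gata4 at -0.24 ± 0.56 (adjusted p = 0.74), whose long loop had been among the strongest of the endoderm list.

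At the Hoxc genes short-range promoter read pairs were lower in cluster2. Hoxc4 stood at 1428, 2513 and 4489 CPM in bulk and at 205, 214, 288, 261 and 286 CPM in cluster2 (log2 fold change -3.56 ± 0.31, adjusted p = 6.3e-16). Hoxc6 had -3.43 ± 0.33 (adjusted p = 2.3e-14). Over the Hox list 1 of 30 tested genes was higher and 21 lower (1 and 21 with library size alone). Hoxa3 had a smaller difference of -1.03 ± 0.29 (adjusted p = 0.0020). The neural factor Rfx4 stood at 31.8, 102 and 296 CPM in bulk and at 0 CPM in 4 of the cluster2 libraries (-4.61 ± 0.72, adjusted p = 1.7e-07). Over the neural list 3 of 40 tested genes were higher and 31 lower, and over the endoderm products 18 of 25 were higher and 3 lower. Over the endoderm regulators 3 of 9 were higher and 2 lower. Among all tested genes 23.4% were higher and 29.8% lower. These lists include genes that were no targets. Of tested targets, 0 of 13 Hox genes were higher and 12 lower, and 0 of 4 neural genes were higher and 1 lower. For the endoderm products 3 of 4 were higher and 0 lower, and for the endoderm regulators 2 of 3 and 0.

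Short-range promoter read pairs were lower in cluster2 at several promoters with strong long loops. Maml3 stood at 253, 500 and 662 CPM in bulk and at 30.7, 14.3, 168, 47.5 and 143 CPM in cluster2 at short range (log2 fold change -2.71 ± 0.35, adjusted p = 9.2e-10). On the same scale its 93.9 kb loop had 0.48 ± 0.35 and was not called, its 56.9 kb loop had 1.00 ± 0.43 and its 402 kb loop had -1.49 ± 0.57. Nrip1 had -1.40 ± 0.42 at short range (adjusted p = 0.0033), beside 3.65 for its 77.7 kb loop. Cyr61 had -1.61 ± 0.35 (adjusted p = 7.5e-05), beside 1.11 ± 0.49 for its 149 kb loop. For Meis1 (-1.34 ± 0.38, adjusted p = 0.0018) and Dhrs3 (-1.68 ± 0.35, adjusted p = 4.3e-05), as for Sall4 (-1.13 ± 0.28, adjusted p = 0.00044) and Msra (-1.72 ± 0.35, adjusted p = 3.1e-05), the called members were lower too. The difference between long-range and short-range read pairs was not tested at any gene. When only anchors seen in loops of both groups were used, the short-range direction turned to 0.060 for Maml3, 2.65 for Nrip1, 0.86 for Dhrs3, 1.11 for Cyr61 and 0.79 for Meis1.

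**Figure D5:**
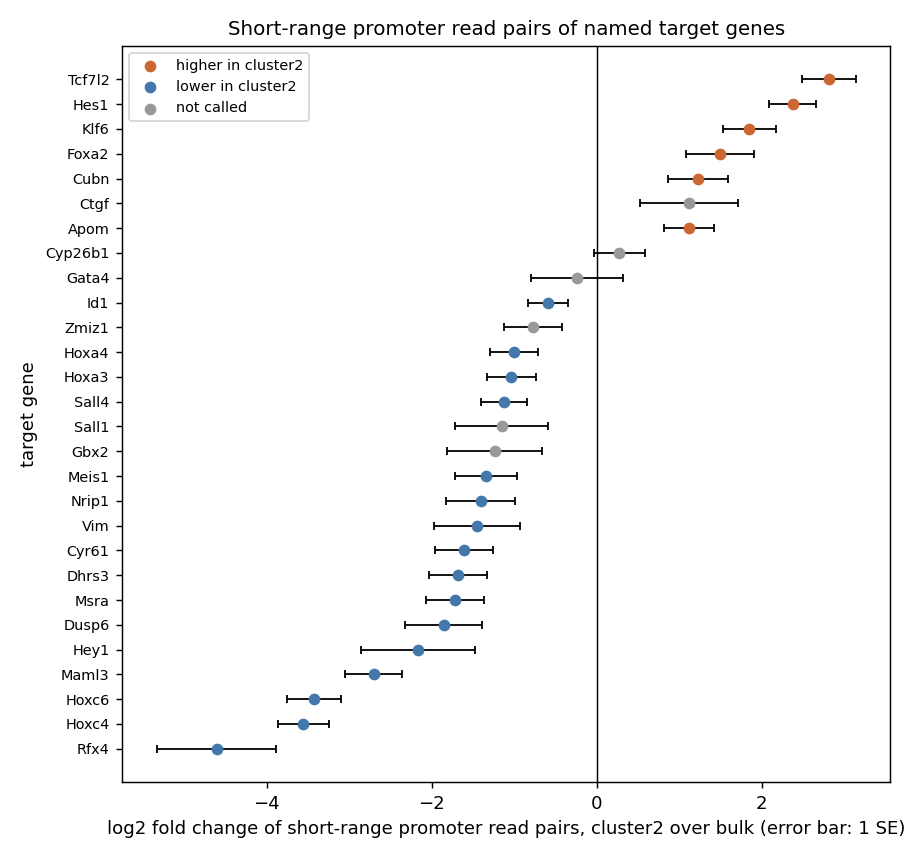
Log2 fold change of short-range promoter read pairs, cluster2 over bulk (x axis, error bars 1 SE), for named target genes (y axis), coloured by the edgeR call over all 8483 genes. Tcf7l2 at 2.81 is the highest and Rfx4 at -4.61 the lowest.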

How the data were processed

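H3K27ac HiChIP loops were analysed in 12 bulk and 5 cluster2 libraries of mouse embryoid bodies. The authors processed the reads with HiC-Pro against mm9, called peaks and loops with hichipper, left out replicates with few strong loops, and deposited 1 list per library of anchor pairs with counts of read pairs (raw counts, not normalised). Groups were taken from the sample titles.

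The 218663 deposited anchors were joined into 216081 by overlap, counts were summed per loop and library, and 700 read pairs within a joined anchor were dropped. Start sites came from every transcript of 22367 protein-coding genes of the mm9 annotation (GENCODE), 19244 of which had an anchor within 5 kb. CPM used all read pairs on joined anchors. edgeR 4.0.16 (R 4.3.3, TMM, quasi-likelihood, Benjamini-Hochberg) was fitted over all loops, or all genes, with 20 or more read pairs from 5 or more libraries, with group as the only term. The SE of a log2 fold change was its absolute value divided by the square root of its quasi-likelihood F statistic. Both fits were tested on simulated data. Library values over members are given without the planned exact permutation test, since the same counts chose the members. Shares have Wilson 95% intervals.

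Members, lists and segments were chosen with earlier results of these data known. Named were the 8 strongest members by the smaller group mean, the 5 strongest that skip, the 5 highest and 5 lowest fold changes, the 3 longest in the fit, the 8 genes with most members, the 3 elements with most promoter anchors (the Smug1 element was added after its values were seen) and up to 4 targets per list, leaving out loops that share an anchor. Alternatives were another scaling (library size alone, TMMwsp, DESeq2 1.42.0), filter, start-site window, count limit, span, each library left out, and a replicate block. Members lie on autosomes only.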

Additional observations from a re-analysis of the deposited data

Results flagged for a closer look

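In 54 sets of 5 cluster2 values, a library was flagged when its gap to the nearest other value exceeded 0.71 of the range of the 5, and 4 were flagged, where chance alone flags some sets. The Dhx8 member stood at 215.5 CPM in cluster2 library 3, with the others between 84.62 and 116.3. The Zfp516 member stood at 39.19 CPM in the same library, with the others between 0 and 9.656. Short-range promoter read pairs of Hoxa3 stood at 735.9 CPM in cluster2 library 4, below the others at 1076 to 1201. Those of Rfx4 stood at 11.9 CPM in cluster2 library 5, with the others at 0.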

How the results depend on the processing

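Most values moved little, but the size of the set followed the limits. There were 2979 members with at least 2 read pairs in each pool, 507 with 5, 89 with 10 and 797 from 100 kb, and 1184 to 1402 or 1172 to 1340 without a bulk or a cluster2 library. The skipping share was 84.2%, 75.9%, 67.4% and 86.4% under these limits in turn, 82.3% and 74.0% with start-site windows of 2.5 and 10 kb, 84.8% with 1 start site per gene, and 78.4% to 79.5% or 79.5% to 80.0% without a bulk or a cluster2 library. The difference in skipping share was 1.40 points with each member counted once, 0.655 and 0.0396 without bulk library 3 or 6 and -1.60 without bulk library 5, within -1.66 to 0.655 and -1.52 to -0.463 over bulk and cluster2 libraries left out. The span difference was -573 bp counted once and -1647 bp from 10 read pairs, and -7514 to -5824 and -5873 to -5351 with a library left out.

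Calls depended on scaling and depth. Higher members numbered 62 by DESeq2, 238 by library size alone, 12 of 33 from 50 read pairs, and 17 without a filter. They were 69 to 88 and 55 to 77 without a bulk or a cluster2 library. Lower members numbered 3 by library size alone, 8 from 50 read pairs, 42 without the 3 segments, 44 to 64 and 50 to 60 without a library, and 0 without a filter by edgeR (3 at an unadjusted p under 0.05, and 47 by DESeq2 with the filter). Target genes with a higher short-range signal were 159 of 858 at 20 to 50 kb, and 192 to 251 and 187 to 238 without a library. Lower ones were 262 at 20 to 50 kb, 133 on anchors of both groups, and 379 to 431 and 376 to 390 without a library. Same-numbered libraries did not deviate together (correlations of -0.0339 to 0.0294). With the replicate block over 10 libraries, 25 members were higher and 31 lower (33 and 35 without it), and 148 target genes were higher and 339 lower (162 and 368).

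By name, library size alone turned Ptma to 0.99, Golt1a to 0.63, Sfi1 to 1.16, the 958 kb Zmiz1 loop to 0.40 and the 155 kb Hoxc loop to 0.24, and no filter turned Sfi1 to 0.19. At short range, loops of 20 to 50 kb turned Cyp26b1 to -2.68, Gata4 to 0.16, Hes1 to -0.37, Cubn to -4.39 and Nrip1 to 0.067, anchors of both groups turned Meis1 to 0.79, Gata4 to 0.89, Cyr61 to 1.11, Nrip1 to 2.65, Maml3 to 0.060 and Dhrs3 to 0.86, the narrower window turned Gata4 to 0.12, and the replicate block and its 10 libraries turned Cyp26b1 to -0.19 and -0.13. The causes were not tested. Depth limits the rest, since 1148 members had too few read pairs for a fit.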
